A study of Mus musculus with 9 samples.

Results

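Keratins and epithelial markers were followed, together with the cornified envelope gene Sprr1a, in a mouse prostate cancer cell line whose histone methyltransferase gene Nsd2 was silenced or that was treated with an MCTP compound. The 10 genes are Krt5, Krt7, Krt8, Krt14, Krt15, Krt18, Krt19, Cdh1, Epcam and Sprr1a. They were chosen by symbol, and Krt15 and Sprr1a were selected on their large measured changes in these same libraries, so both are described without a test. Of the 10 genes, 9 had a value among the 12842 genes of the table, and Krt5 was not analysed here. A gene entered a test when at least 3 of the 6 libraries compared were above a log2 value of 3.78, a level near the bottom of all values. Of the 9 genes, 8 passed this filter and 6 of those were tested, while Epcam was under it in all 9 libraries.

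The cells, called NPK, were derived by the study from lung metastases of genetically engineered mice with prostate cancer, so every group shares the alleles of those mice. In such mice a tamoxifen-inducible Cre acts in prostate epithelial cells, where it also turns on the R26R-YFP reporter, a yellow fluorescent protein. Polyadenylated RNA was sequenced from 3 libraries of control cells, 3 of cells treated with an MCTP compound and 3 of cells carrying a short hairpin RNA against Nsd2 (shNsd2). The comparisons ask how the epithelial keratin programme differs from control in the silenced cells and in the cells given the compound. The labels number the compound 39, 40 and 41 in MCTP replicates 1, 2 and 3, whereas the study describes a single compound, MCTP-39, whose inhibition of NSD2 it treats as putative, and the dose and time for these libraries are not given in the sources used here. All silenced libraries are titled shNsd2, but a second label names Nsd2, Nsd3 and Nsd4 in replicates 1, 2 and 3. Which hairpin against Nsd2 was used is not given. The study's methods name a hairpin against luciferase as the control for silencing, whereas the labels of these libraries say control cells and no more. Nothing states that the libraries of a group came from separate cultures, so p-values measure only the spread between these libraries, which may be technical.

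Nsd2 itself, listed in the table under the older symbol Whsc1, had log2 values of 12.48, 12.43 and 12.42 in the control libraries, 11.56, 11.61 and 11.68 in the shNsd2 libraries and 12.15, 12.21 and 12.07 in the MCTP libraries. It was lowest in the silenced cells, intermediate with MCTP and highest in the controls, with no overlap between groups. The log2 fold change against control was -0.83 ± 0.041 (SE, n = 3 against 3, limma adjusted p = 2.26e-06) in the shNsd2 libraries, which is 0.563 of the control level, and -0.30 ± 0.054 (limma adjusted p = 0.00562) in the MCTP libraries.

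Keratins are the intermediate filament proteins of epithelial cells and assemble from obligate pairs of a type I and a type II chain. Krt8 and Krt18, joined by Krt19 and Krt7, form the filaments of simple epithelia, including the luminal cells that face the lumen of prostate glands, whereas Krt5, Krt14 and Krt15 mark the basal cells beneath them. Cdh1 (E-cadherin) and Epcam are adhesion molecules of epithelial cell membranes, and Sprr1a is a small proline-rich protein that is cross-linked into the cornified envelope of stratified epithelia. In bulk RNA, fewer cells of a type and less RNA per cell cannot be told apart.

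MCTP replicate 2 stood apart from the other MCTP libraries. Its correlation across genes was 0.9979 with MCTP replicate 1 and 0.9964 with MCTP replicate 3, against 0.9995 between those 2, and among the controls replicate 1 had 0.9992 and 0.9989 with the others, against 0.9998 between replicates 2 and 3. MCTP replicate 2 was the lowest MCTP library for all of Krt7, Krt8, Krt14, Krt15, Krt18, Krt19 and Sprr1a. Values for these genes against control are therefore also given without it.

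The share of all tested genes called (limma, Benjamini-Hochberg adjusted p under 0.05) sets the background for every count below. Between shNsd2 and control, 47.8% of 12205 genes were called, 23.1% as higher and 24.8% as lower in shNsd2. Between MCTP and control, 35.2% of 12216 genes were called, 18.0% as higher and 17.2% as lower in MCTP. At an unadjusted p under 0.05 the shares were 26.7% higher and 28.1% lower with shNsd2 and 23.8% and 24.4% with MCTP, and without MCTP replicate 2, 29.8% were called higher and 30.6% lower with MCTP. The balance depends on the scaling: higher genes made up 48.2% of the calls with shNsd2 and 51.1% with MCTP, but 53.8% and 59.6% once each library is centred on its median. Directly between the treatments, 43.2% of 12217 genes were called, 20.6% as higher and 22.6% as lower in shNsd2. Of the 6 tested keratin and adhesion genes, shNsd2 had 2 higher, 3 lower and 1 not called, MCTP had 2 higher, 1 lower and 3 not called, and the direct comparison had 2 higher, 3 lower and 1 not called in shNsd2. An exact two-sided permutation test of 3 libraries against 3 cannot give a p below 0.1, so the called genes rest on the moderated limma fit. Both treatments are compared with the same 3 control libraries, so their changes are not independent of each other.

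The simple epithelial keratins were the most abundant of the chosen genes. Per kilobase of transcript, in the control mean, Krt19 ranked 26, Krt8 ranked 35, Krt18 ranked 59 and Krt7 ranked 355 of 12513 genes with a known length. Krt15 followed at 573, Sprr1a at 1995, Cdh1 at 2794 and the basal keratin Krt14 at 5984, and Epcam came far down at 11894.

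Krt8, the main type II keratin of simple epithelia, had log2 values of 16.21, 16.35 and 16.28 in the controls, 16.15, 16.10 and 15.97 with shNsd2 and 16.57, 16.34 and 16.70 with MCTP. The shNsd2 libraries were all below the controls, while MCTP replicate 2 fell inside the control range. The log2 fold change with shNsd2 was -0.21 ± 0.06 (limma adjusted p = 0.0193), a call kept in 3 of 6 fits that leave out a library. It was lost without control replicate 2 (adjusted p = 0.0747), control replicate 3 (0.0503) or shNsd2 replicate 3 (0.0523). With MCTP the change was 0.25 ± 0.1 (limma adjusted p = 0.0812), and without MCTP replicate 2 it was 0.35 ± 0.071 (limma adjusted p = 0.00182). The size depended on the scaling, at 0.09 under quantile normalization (limma adjusted p = 0.117) and 0.16 after the correction for GC content (0.0543). The treatments themselves differed by -0.46 ± 0.1, shNsd2 being lower (limma adjusted p = 0.00902).

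Krt18, the type I partner of Krt8, read 15.25, 15.47 and 15.44 in the controls, 15.45, 15.37 and 15.31 with shNsd2 and 15.40, 15.21 and 15.52 with MCTP. All groups overlapped and shared a mean of 15.38. Its log2 fold change was -0.01 with shNsd2 (95% interval -0.15 to 0.14, limma adjusted p = 0.951) and -0.01 with MCTP (-0.23 to 0.22, limma adjusted p = 0.961). Both signs turn when each library is centred on its median, and without MCTP replicate 2 the MCTP value is 0.08 (limma adjusted p = 0.401). Differences of Krt18 beyond those intervals were not seen.

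Krt19, a type I keratin with a very short tail domain, read 16.08, 16.28 and 16.24 in the controls, 15.94, 15.87 and 15.76 with shNsd2 and 16.60, 16.34 and 16.76 with MCTP. Every shNsd2 library lay below every control and every MCTP library above, although MCTP replicate 2 cleared the highest control by little. Krt19 fell with shNsd2 (log2 fold change -0.34 ± 0.065, limma adjusted p = 0.00257) and rose with MCTP (0.37 ± 0.11, limma adjusted p = 0.0392). The call with MCTP depended on single libraries. It was kept without MCTP replicate 2 (0.48 ± 0.08, limma adjusted p = 0.000615) and lost when any of the other 5 libraries was left out. Those adjusted p values were 0.13, 0.0782 and 0.0897 without control replicates 1, 2 and 3, and 0.128 and 0.0992 without MCTP replicates 1 and 3. The direct difference was the largest of the simple keratins, -0.71 ± 0.11 with shNsd2 below MCTP (limma adjusted p = 0.00206).

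Krt7, the type II keratin of ducts and other simple epithelia, went the other way. It read 14.39, 14.55 and 14.57 in the controls, 14.80, 14.71 and 14.67 with shNsd2 and 14.44, 14.19 and 14.46 with MCTP. All shNsd2 libraries were above the controls, and the MCTP libraries overlapped them. Krt7 rose with shNsd2 (log2 fold change 0.22 ± 0.057, limma adjusted p = 0.0117), a call that is lost without shNsd2 replicate 1 (0.18, adjusted p = 0.0527) and when all 9 libraries share one fit (adjusted p = 0.0566). With MCTP it was -0.14 ± 0.088 (limma adjusted p = 0.232) with all libraries and -0.06 (0.461) without MCTP replicate 2, and shNsd2 was above MCTP by 0.36 ± 0.081 (limma adjusted p = 0.0105). After a correction for GC content the MCTP value became -0.20 and passed the threshold (limma adjusted p = 0.0264).

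**Figure D1:**
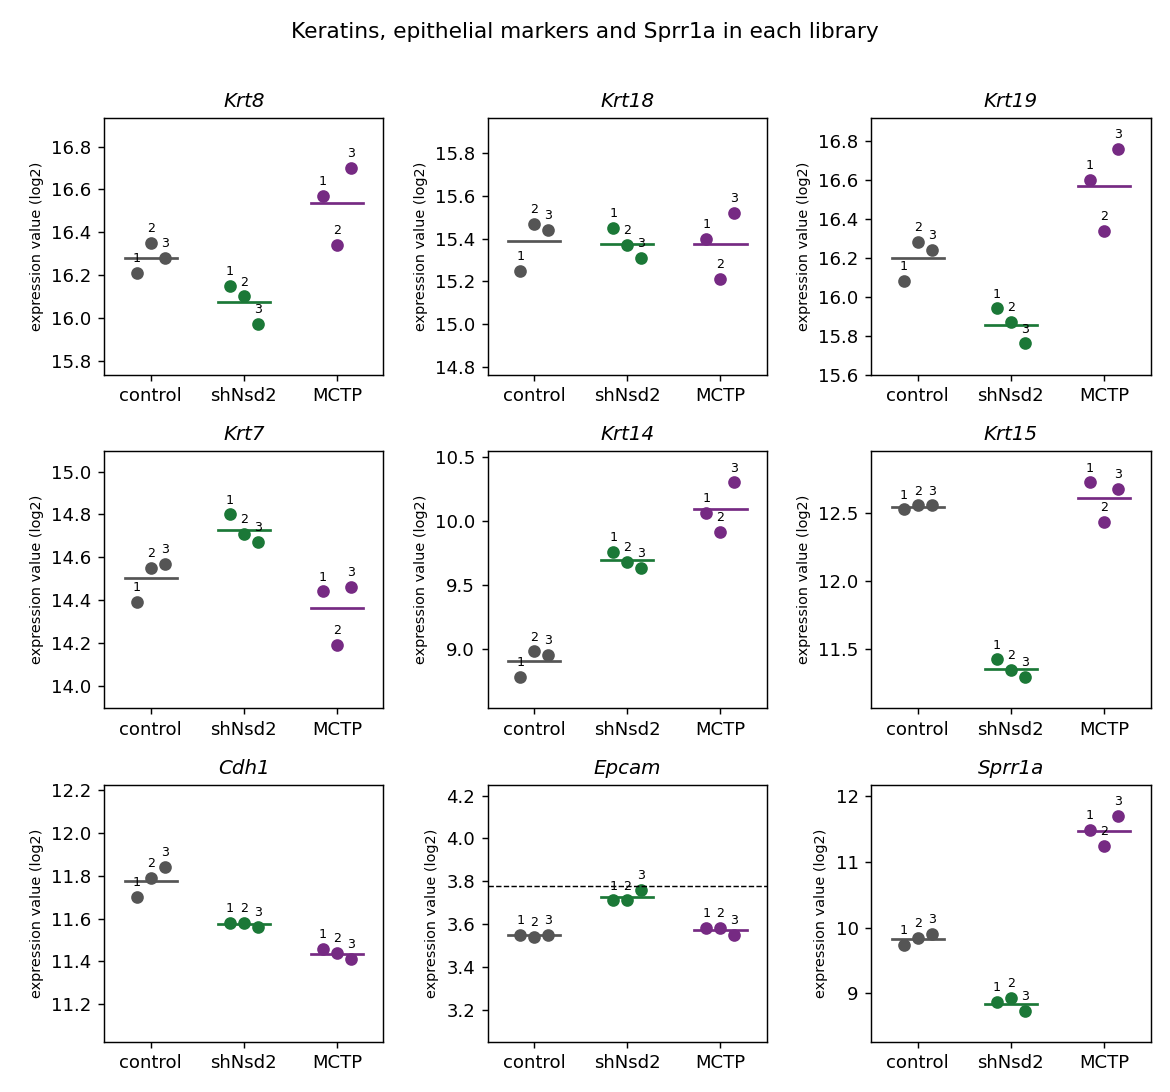
Log2 expression value (y axis, a separate range per panel spanning at least 1 log2 unit) of the 9 genes with a value in each library, grouped by control, shNsd2 and MCTP (x axis). Each numbered point is a replicate, each bar a group mean, and the dashed line in the Epcam panel is the filter at 3.78. Krt15 separates shNsd2 (11.29 to 11.42) from the other groups (12.44 to 12.73), while Sprr1a is lowest with shNsd2 (8.74 to 8.93) and highest with MCTP (11.24 to 11.70).

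Krt14, the type I keratin of basal cells, had the largest change against control of the 6 tested genes. It read 8.78, 8.98 and 8.95 in the controls, 9.76, 9.68 and 9.63 with shNsd2 and 10.06, 9.91 and 10.30 with MCTP. The 3 groups did not overlap, with the controls lowest and MCTP highest. Krt14 rose by 0.78 ± 0.061 on the log2 scale with shNsd2 (1.72 times the control level, limma adjusted p = 2.22e-05) and by 1.19 ± 0.1 with MCTP (2.28 times, limma adjusted p = 0.000274; 1.28 ± 0.083 without MCTP replicate 2). The shNsd2 libraries were below MCTP by -0.40 ± 0.097 (limma adjusted p = 0.0136), a call lost without shNsd2 replicate 3 (adjusted p = 0.052). Krt14 shares much of its sequence with Krt16 and Krt17, and how reads from such copies were assigned is not given in the sources used here, so its level is uncertain to that extent.

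Krt15, another type I keratin of basal cells and of stem cell compartments in skin and oesophagus, showed the opposite sign with shNsd2. It read 12.53, 12.56 and 12.56 in the controls, 11.42, 11.34 and 11.29 with shNsd2 and 12.73, 12.44 and 12.68 with MCTP. The silenced libraries were all more than 1 log2 unit below every other library, and the MCTP libraries straddled the tightly grouped controls. The difference of means was -1.20 for shNsd2 against control (0.434 of the control level), 0.07 for MCTP against control (0.15 without MCTP replicate 2, 0.01 without MCTP replicate 1 and -0.03 after the GC correction) and -1.27 for shNsd2 against MCTP. Among the 12205 genes compared between shNsd2 and control, this was the 7th largest fall, just after Aldoc (-1.23) and just before Il33 (-1.18). No test is attached because the gene was chosen for this change.

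The keratins as a family were read from every symbol of Krt followed by a digit, 17 in all with the chosen ones, of which 15 could be tested once Krt15 and Krt33a, the latter under the filter, are set aside. Symbols are those of the table, so the gene that the reference annotation names Krt83 is not among them and is given below. With shNsd2, 6 of the 15 were higher, 6 lower and 3 not called, with a median log2 fold change of -0.01 against 0.002 over all genes. With MCTP, 5 were higher, 0 lower and 10 not called (median 0.04 against -0.006 over all genes), and without MCTP replicate 2, 7 were higher and 0 lower. Directly compared, 1 was higher and 9 were lower in shNsd2 than in MCTP. At an unadjusted p under 0.05 in the limma fit of all libraries, 7 keratins were higher and 1 was lower with MCTP. Of the 10 tested keratins outside the chosen genes, 4 were higher and 4 lower with shNsd2 (median 0.02), and 3 were higher and 0 lower with MCTP (median 0.03), or 4 and 0 without MCTP replicate 2.

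Krt13, the type I keratin of internal stratified epithelia such as the oesophagus, followed the shape of Krt15. It read 11.13, 11.26 and 11.27 in the controls, 10.49, 10.48 and 10.40 with shNsd2 and 11.27, 11.08 and 11.40 with MCTP. Only the shNsd2 libraries left the control range as a group. Krt13 fell with shNsd2 (log2 fold change -0.76 ± 0.048, limma adjusted p = 7.4e-06), and with MCTP its value was 0.03 ± 0.087 (limma adjusted p = 0.796), a sign that turns under the GC correction. Its type II partner Krt4 moved differently, rising by 0.36 with shNsd2 (limma adjusted p = 0.00209) and by 0.76 with MCTP (limma adjusted p = 0.000849).

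Krt6a and Krt16, the keratins that activated and wounded epidermis makes, rose in both comparisons. Krt6a read 7.63, 7.88 and 7.71 in the controls, 8.33, 8.30 and 8.17 with shNsd2 and 8.65, 8.58 and 8.93 with MCTP, so all treated libraries were above all controls. Its log2 fold change was 0.53 ± 0.071 with shNsd2 (limma adjusted p = 0.000415) and 0.98 ± 0.1 with MCTP (limma adjusted p = 0.00063). Krt16 stayed low, between 4.36 and 4.78 in all 9 libraries, with changes of 0.17 (limma adjusted p = 0.00127) and 0.29 (limma adjusted p = 0.00654). Krt6a has a near-identical copy, Krt6b, not analysed here, and its value is uncertain for the same reason as that of Krt14.

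The remaining keratins were called with shNsd2 or not at all. With shNsd2, Krt79 was lower by -0.26 (limma adjusted p = 0.00403), Krt36 by -0.13 (0.0025) and Krt76 by -0.12 (0.025), and Krt80 was higher by 0.15 (0.0256). The Krt76 call was lost without any library but control replicate 1 (0.0526 to 0.0739), and the Krt80 call without shNsd2 replicate 1, 2 or 3 (0.0565 to 0.0731). None of these 4 was called with MCTP, although Krt76 was lower by as much there (-0.13, limma adjusted p = 0.0741) and did not separate the treatments (0.01, limma adjusted p = 0.888). Krt10 and Krt78 were not called in either comparison, with log2 fold changes of 0.04 and -0.01 for shNsd2 and 0.01 and 0.14 for MCTP, although Krt78 passed with MCTP when MCTP replicate 2 was left out (limma adjusted p = 0.015).

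Type I and type II keratin genes are grouped in separate chromosomal clusters, and the changes were read along them in the order of the reference annotation. In the type I cluster on chromosome 11, Krt13, Krt15 and Krt19 follow one another among the genes with a value, and each was lower with shNsd2 in every library. The next genes in that order, Krt14 and Krt16, were higher with shNsd2, so the sign changes between Krt19 and Krt14. With MCTP the same stretch held Krt19, Krt14 and Krt16 as called higher and Krt13 as not called. In the type II cluster on chromosome 15, Krt8 was called lower under shNsd2 (-0.21), a call kept in 3 of 6 fits that leave out a library. Its neighbour Krt18 was not called (-0.01), and the difference between these 2 genes was not tested. Of the 10 genes with a value there, 4 were higher and 4 lower with shNsd2, and 2 were higher and 1 lower with MCTP. The lower gene with MCTP, also among the 4 lower with shNsd2, was 5430421N21Rik, which the reference annotation names Krt83. It was picked out after its values were seen, so its place in these counts is not a test. Its log2 fold change was -0.56 with shNsd2 and -0.36 with MCTP.

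**Figure D2:**
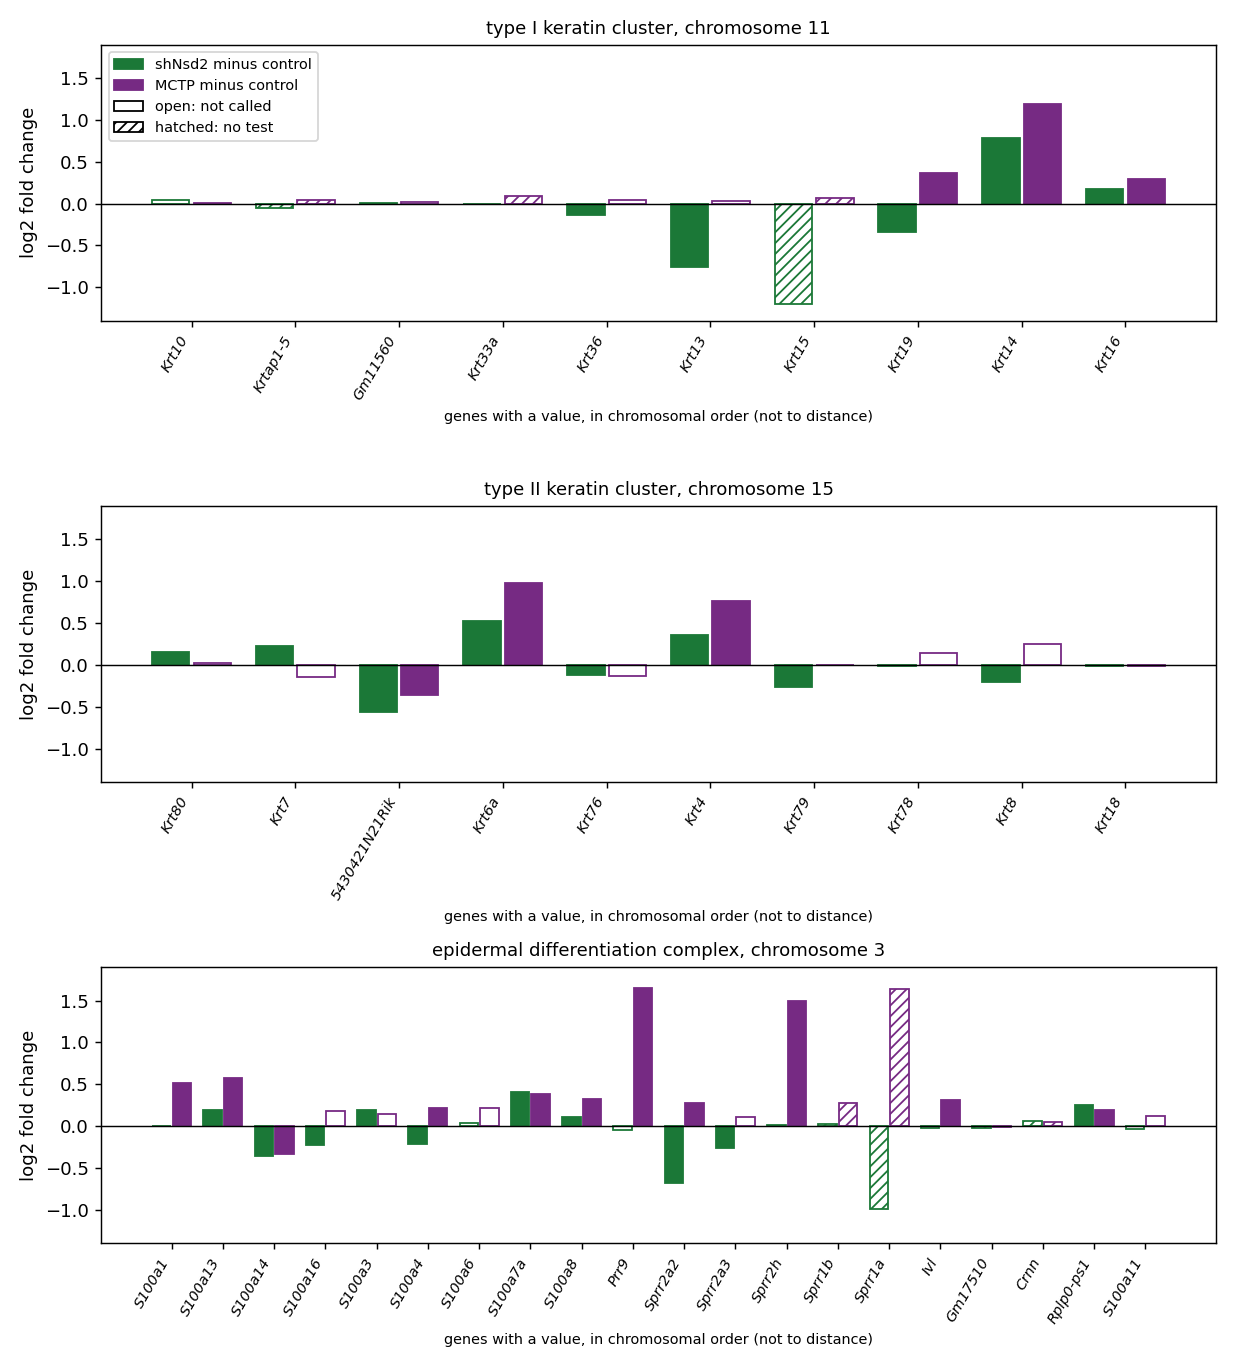
Log2 fold change against control (y axis) of every gene with a value in both keratin clusters and in the epidermal differentiation complex, in chromosomal order (x axis, not to distance), for shNsd2 and MCTP. Filled bars are called by limma, open bars are not called, and hatched bars carry no test. Prr9, Sprr2a2, S100a7a and 5430421N21Rik were picked out after their values were seen, so a filled bar is no test of them. Under shNsd2 the type I cluster passes from -0.76 and -1.20 at Krt13 and Krt15 to 0.78 at Krt14, and under MCTP the complex holds Prr9 (1.65), Sprr2h (1.49) and Sprr1a (1.64).

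Keratin filaments are anchored at desmosomes by plakins, and these were read with other genes in a list of keratin partners. Of 8 tested genes, 5 were higher and 0 lower with shNsd2, and 3 were higher and 0 lower with MCTP, with medians of 0.21 and 0.13. Krtcap2, which was on the list but is not a keratin partner, is among the 5 higher with shNsd2 (0.19, limma adjusted p = 0.0114). Without MCTP replicate 2, 4 were higher and 1 lower with MCTP. The clearest was desmoplakin, Dsp, which ties keratins to the desmosomal plaque. Dsp read 8.23, 8.28 and 8.22 in the controls, 9.60, 9.54 and 9.57 with shNsd2 and 9.29, 9.43 and 9.48 with MCTP. Every treated library was more than 1 log2 unit above every control, with changes of 1.33 ± 0.041 (limma adjusted p = 5.65e-07) and 1.16 ± 0.066 (limma adjusted p = 5.67e-05). Envoplakin, Evpl, rose by 0.34 with shNsd2 (limma adjusted p = 0.000662) and 0.77 with MCTP (limma adjusted p = 0.000284), and Fam83h, which organises keratin filaments, rose by 0.35 (0.000304) and 0.36 (0.0112, or 0.0544 without MCTP replicate 1).

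Cdh1, the calcium-dependent adhesion molecule of adherens junctions, read 11.70, 11.79 and 11.84 in the controls, 11.58, 11.58 and 11.56 with shNsd2 and 11.46, 11.44 and 11.41 with MCTP. The controls were highest and MCTP lowest, without overlap. Cdh1 fell by 0.20 with shNsd2 (log2 fold change -0.20 ± 0.041, limma adjusted p = 0.00368) and by 0.34 with MCTP (-0.34 ± 0.053, limma adjusted p = 0.00325), the same -0.34 without MCTP replicate 2. Both calls held in 6 of 6 fits that leave out a library. The treatments differed by 0.14 ± 0.041 (limma adjusted p = 0.0298), a call that held only when MCTP replicate 2 was the library left out (0.0109). It was lost in the other 5 such fits, with adjusted p values of 0.116, 0.121 and 0.0916 without shNsd2 replicates 1, 2 and 3 and of 0.0649 and 0.0688 without MCTP replicates 1 and 3.

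Epcam, a marker of carcinoma cells, was close to the lowest values of the table. It read 3.55, 3.54 and 3.55 in the controls, 3.71, 3.71 and 3.76 with shNsd2 and 3.58, 3.58 and 3.55 with MCTP. No library reached the filter of 3.78, so Epcam is a marker that these cells, labelled as prostate cancer cells, hardly expressed by this measure. In the fit without a filter its log2 fold change was 0.18 ± 0.019 with shNsd2 (limma adjusted p = 0.000125) and 0.02 ± 0.017 with MCTP (limma adjusted p = 0.313). These values lie at the level taken here as not expressed, so they are given as values only.

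Other junction genes were mixed. In the list of adherens junction and epithelial adhesion genes, which holds Cdh1, 3 of 8 tested genes were higher and 3 lower with shNsd2, and 2 were higher and 1 lower with MCTP. The rises were all of nectins. Pvrl1 rose by 0.59 with shNsd2 (limma adjusted p = 1.23e-05) and 0.36 with MCTP (limma adjusted p = 0.00399), Pvrl2 by 0.22 with shNsd2 (limma adjusted p = 0.00442), and Pvrl4 by 0.57 with MCTP (limma adjusted p = 5.22e-05) but by only 0.08 with shNsd2 (limma adjusted p = 0.0306), a call kept in 2 of 6 fits that leave out a library. P-cadherin, Cdh3, fell by 0.24 with shNsd2 (log2 fold change -0.24, limma adjusted p = 0.000261). Among 7 tested desmosome genes, 2 were higher and 2 lower with shNsd2, and 2 were higher and 1 lower with MCTP. Dsp, already counted as a keratin partner, is among the higher genes in both comparisons. Part of these counts hung on single libraries. With shNsd2, the calls of Pkp3 as higher (0.13) and Pkp2 as lower (-0.11) were each kept in 2 of 6 fits that leave out a library. With MCTP, the call of Pkp2 as higher (0.15) was kept in 1 of 6. Desmocollin 2, Dsc2, fell with shNsd2 (-0.40, limma adjusted p = 0.000101), and plakophilin 1, Pkp1, fell with MCTP (-0.34, limma adjusted p = 0.00753).

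Of 15 tested tight junction and polarity genes, 9 were higher and 1 lower with shNsd2, and 5 were higher and 4 lower with MCTP. One of the 9, Marveld2, lay at the filter, with 3.76, 3.75 and 3.78 in the controls and 3.87, 3.83 and 3.84 with shNsd2, so it passed only through the libraries in which it is high. Without it, 8 of 14 were higher. The lower gene was claudin 4, Cldn4, which read 10.49, 10.56 and 10.60 in the controls, 10.23, 10.16 and 10.09 with shNsd2 and 10.90, 10.75 and 10.98 with MCTP. As with Krt19, shNsd2 lay below and MCTP above the controls in every library (-0.39, limma adjusted p = 0.000238, and 0.33, limma adjusted p = 0.0116, or 0.0569 without MCTP replicate 1). The polarity gene Pard6b went the other way, 0.54 with shNsd2 (limma adjusted p = 5e-05) and -0.25 with MCTP (limma adjusted p = 0.0163, or 0.0678 and 0.0699 without control replicates 2 and 3). Occludin, Ocln, rose in both, by 0.37 (limma adjusted p = 0.000608) and 0.27 (limma adjusted p = 0.0115). With MCTP, the calls of Cldn6 (0.13) and Llgl2 (0.26) as higher and of Tjp1 (-0.34) as lower were each kept in 1 of 6 fits that leave out a library. The call of Llgl2 as higher with shNsd2 (0.17) was kept in 3 of 6.

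Sprr1a read 9.74, 9.85 and 9.91 in the controls, 8.87, 8.93 and 8.74 with shNsd2 and 11.49, 11.24 and 11.70 with MCTP. The groups were wide apart, with shNsd2 lowest, MCTP highest and each library of a group on the same side of every library of the others. The difference of means was -0.99 for shNsd2 against control (0.504 of the control level), 1.64 for MCTP against control (3.13 times the control level, and 1.76 on the log2 scale without MCTP replicate 2) and -2.63 for shNsd2 against MCTP. Its difference with MCTP was the 7th largest rise among 12216 genes, just after Prr9 (1.65) and just before Ddit4l (1.56). No test is attached to these values, which chose the gene.

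Sprr1a lies in the epidermal differentiation complex on chromosome 3, a cluster of genes for cornified envelope precursors and S100 proteins. Of the 20 genes with a value between S100a1 and S100a11, 4 were left out of the count. Of the rest, 10 were called higher and 1 lower with MCTP, and 5 higher and 5 lower with shNsd2. Rplp0-ps1, a ribosomal protein pseudogene in the stretch, is among the higher calls with MCTP (0.19, limma adjusted p = 0.0495) and with shNsd2 (0.25, limma adjusted p = 0.000794). The call of S100a4 as higher with MCTP (0.21) was kept in 2 of 6 fits that leave out a library. The higher calls with MCTP include Prr9, Sprr2a2 and S100a7a, which were picked out after their values were seen. With shNsd2, S100a7a is among the higher and Sprr2a2 among the lower calls. For these genes a place in the count is not a test. Prr9, a proline-rich gene of the complex picked out after its values were seen, read 7.07, 6.86 and 6.94 in the controls, 6.99, 6.89 and 6.85 with shNsd2 and 8.52, 8.69 and 8.63 with MCTP. Sprr2h, a relative of Sprr1a, read 5.99, 6.13 and 5.91 in the controls, 6.01, 6.03 and 6.03 with shNsd2 and 7.41, 7.42 and 7.69 with MCTP. In both genes the MCTP libraries stood alone and the silenced libraries overlapped the controls. The MCTP changes were 1.65 for Prr9, given without a test, and 1.49 ± 0.09 for Sprr2h (limma adjusted p = 6.18e-05), and with shNsd2 the values were -0.05 for Prr9 and 0.01 for Sprr2h (limma adjusted p = 0.854).

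Sprr2a2, also picked out after its values were seen, had the sign pattern of Sprr1a. It read 7.38, 7.32 and 7.32 in the controls, 6.73, 6.65 and 6.59 with shNsd2 and 7.58, 7.48 and 7.76 with MCTP, with shNsd2 below and MCTP above the controls throughout. The log2 fold change was -0.68 with shNsd2 and 0.27 with MCTP, given without a test. Sprr2a2 and Sprr2a3 are near-identical copies, so the split of reads between them is uncertain. Ivl, involucrin, a scaffold of the envelope, was low at 4.20 to 4.22 in the controls and rose with MCTP (0.31, limma adjusted p = 0.00221), and its value with shNsd2 was -0.02 (limma adjusted p = 0.449).

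Across the whole cornified envelope list, 9 genes were tested. With MCTP, 5 were higher and 0 lower by limma (6 and 0 at an unadjusted p under 0.05), with a median log2 fold change of 0.31, and without MCTP replicate 2, 6 were higher and 2 lower. With shNsd2, 3 were higher and 3 lower, with a median of -0.02. Dsp and Evpl, already counted as keratin partners, are among the higher genes of this list in both comparisons. The summed level of the list, as log2 of the added linear values, was 17.29, 17.25 and 17.19 in the controls, 16.84, 16.86 and 16.88 with shNsd2 and 17.16, 17.19 and 17.03 with MCTP. This sum, most of it from Emp1, did not rise with MCTP. Suprabasin, Sbsn, rose by 1.09 with MCTP (limma adjusted p = 5.95e-05) and by 0.18 with shNsd2 (limma adjusted p = 0.0124, or 0.0602 without shNsd2 replicate 2). Emp1, the most abundant gene of the list at a mean of 16.85, fell with shNsd2 (-0.42, limma adjusted p = 0.000141) and was not called with MCTP (-0.16, limma adjusted p = 0.131). Among 10 tested genes of the S100 list, 4 were higher and 1 lower with MCTP, and 3 were higher and 4 lower with shNsd2; without MCTP replicate 2, 9 were higher and 1 lower with MCTP. The list takes in S100a10, which is outside the stretch from S100a1 to S100a11, and lacks S100a7a, picked out within that stretch after its values were seen, which was higher by 0.41 with shNsd2 and 0.38 with MCTP. S100a14 was lower in both, at -0.36 with shNsd2 (limma adjusted p = 0.00112) and -0.33 with MCTP (limma adjusted p = 0.0203, or 0.0749 and 0.0755 without control replicates 2 and 3).

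Promoter sequences of 300 bases, from 250 before to 50 after the start of the gene, were read from RefSeq for the mouse build GRCm38.p6, and 7 of the 10 genes matched (Krt5, Krt7, Krt8, Krt14, Krt18, Epcam and Sprr1a); Krt15, Krt19 and Cdh1 had no entry. They were searched on both strands for TGANTCA and for TATAAA, the letters of a TATA box. TGANTCA takes in TGACTCA and TGAGTCA, the letters that AP-1 transcription factors bind, but allows any base at its centre. TGANTCA was found in 7.81% and TATAAA in 13.6% of all 32851 promoters of that length, and both in 1.54%. Among the 7 genes, TGANTCA was found for 1, Sprr1a, and TATAAA for 2, Sprr1a and Krt8. In Krt8 its matches begin 3 and 1 bases before the start, on opposite strands, which is not the position of a TATA box. The Sprr1a promoter holds TGANTCA 2 times, beginning 146 and 116 bases before the start, as 0.46% of promoters hold it more than once, and a TATAAA that begins 43 bases before the start. The sequence is shown beside those of the 4 protein-coding genes of the complex outside the S100 family that the limma fit called higher with MCTP, so that shared letters can be seen. Of these, Prr9 and Sprr2a2 were picked out after their values were seen, so their calls are no test. The Sprr2a2 call was lost when any library but MCTP replicate 2 was left out. Capitals mark TGANTCA and TATAAA, which do not overlap in these sequences.
Sprr1a (chr3:92485832-92486131, minus strand): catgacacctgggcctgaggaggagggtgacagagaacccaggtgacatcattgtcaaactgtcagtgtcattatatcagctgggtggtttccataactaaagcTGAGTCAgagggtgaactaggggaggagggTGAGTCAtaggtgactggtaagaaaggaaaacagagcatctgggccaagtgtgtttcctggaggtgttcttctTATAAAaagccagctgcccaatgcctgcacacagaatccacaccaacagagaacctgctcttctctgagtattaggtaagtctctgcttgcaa
Sprr2h (chr3:92385435-92385734, plus strand): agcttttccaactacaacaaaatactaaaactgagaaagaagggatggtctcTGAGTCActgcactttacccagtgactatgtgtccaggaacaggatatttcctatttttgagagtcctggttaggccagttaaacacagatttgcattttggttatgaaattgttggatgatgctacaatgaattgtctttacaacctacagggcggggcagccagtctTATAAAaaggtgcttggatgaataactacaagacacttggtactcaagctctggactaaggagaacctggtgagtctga
Prr9 (chr3:92123898-92124197, minus strand): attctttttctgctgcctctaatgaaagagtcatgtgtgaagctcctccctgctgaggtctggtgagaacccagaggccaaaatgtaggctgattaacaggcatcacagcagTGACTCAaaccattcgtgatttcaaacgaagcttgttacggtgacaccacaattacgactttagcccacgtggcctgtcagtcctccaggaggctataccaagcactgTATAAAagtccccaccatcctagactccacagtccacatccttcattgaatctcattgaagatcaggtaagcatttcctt
Ivl (chr3:92573686-92573985, minus strand): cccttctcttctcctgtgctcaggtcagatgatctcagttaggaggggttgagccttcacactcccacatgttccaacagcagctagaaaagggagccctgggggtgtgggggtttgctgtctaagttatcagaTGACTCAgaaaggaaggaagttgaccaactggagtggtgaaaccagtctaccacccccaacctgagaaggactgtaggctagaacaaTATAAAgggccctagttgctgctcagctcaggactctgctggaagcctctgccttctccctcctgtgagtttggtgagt
Sprr2a2 (chr3:92250397-92250696, plus strand): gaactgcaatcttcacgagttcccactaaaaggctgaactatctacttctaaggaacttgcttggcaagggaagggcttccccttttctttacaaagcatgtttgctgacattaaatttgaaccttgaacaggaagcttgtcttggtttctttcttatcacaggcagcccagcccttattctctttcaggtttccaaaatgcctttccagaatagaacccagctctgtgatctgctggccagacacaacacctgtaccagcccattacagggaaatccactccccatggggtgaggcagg
Sprr1a, Sprr2h, Prr9 and Ivl each hold both motifs, and Sprr2a2 holds neither. The reference annotation places Sprr2a2 at chr3:92215920-92256724, so by that annotation its window lies inside the gene and not at its start. Of the 17 genes of the complex with a promoter entry, 8 hold TGANTCA, 9 hold TATAAA and 6 hold both. The TGANTCA matches of Sprr1b, Crnn and S100a16 read TGAATCA, so these counts are wider than the AP-1 letters. A match describes letters only and shows no binding.

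Genes of AP-1 subunits were read for the same libraries. Of 7 tested, 4 were higher and 1 lower with shNsd2, and 3 were higher and 0 lower with MCTP by limma (3 and 1 at an unadjusted p under 0.05). Fosl2, the most abundant of them, had the signs of Sprr1a, with values of 12.65, 12.69 and 12.82 in the controls, 12.54, 12.61 and 12.61 with shNsd2 and 13.16, 13.15 and 13.09 with MCTP. It rose with MCTP (log2 fold change 0.41, limma adjusted p = 0.0023), and its fall with shNsd2 (-0.13, limma adjusted p = 0.0468) was kept without control replicate 1 and lost when any of the other 5 libraries was left out (0.0602 to 0.16). Fosb and Fosl1 rose with shNsd2, by 0.51 (limma adjusted p = 7.6e-05) and 0.30 (limma adjusted p = 0.00128), and were at 0.04 (limma adjusted p = 0.604) and 0.03 (limma adjusted p = 0.808) with MCTP. Jund rose in both, by 0.28 (limma adjusted p = 0.0063) and 0.41 (limma adjusted p = 0.0102, or 0.0503 without MCTP replicate 1).

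A list of transcription and splicing regulators of epithelial cells also held the protease gene St14 and the protease inhibitor genes Spint1 and Spint2, which are neither. Of its 12 tested genes, 6 were higher and 2 lower with shNsd2, and 6 were higher and 1 lower with MCTP. St14 and Spint1 are among the higher genes in both comparisons. The calls of Esrp2 with shNsd2 and Spint1 with MCTP were kept in 1 and 2 of 6 fits that leave out a library. Klf4, which drives late differentiation in stratified epithelia, rose in both, by 0.22 with shNsd2 (limma adjusted p = 0.00915) and by 0.41 with MCTP (limma adjusted p = 0.00193). Klf5, which is made by proliferating epithelial cells, fell in both, with -0.20 (limma adjusted p = 0.00476) and -0.52 (limma adjusted p = 0.000874). Trp63, the master regulator of basal cells, was low in every group, with 4.94, 4.81 and 4.85 in the controls, 4.78, 4.77 and 4.77 with shNsd2 and 4.88, 4.95 and 4.86 with MCTP. Its fall with shNsd2 (-0.09, limma adjusted p = 0.0464) was kept in 1 of 6 fits that leave out a library.

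Set against lists of prostate cell types, the keratins did not move as a unit. Of the simple epithelial keratins, 4 were tested, and 1 was higher and 2 lower with shNsd2 while 1 was higher and 0 lower with MCTP by limma (2 and 0 at an unadjusted p under 0.05). Of the basal and stratified keratins, 6 were tested, and 4 were higher and 1 lower with shNsd2 while 4 were higher and 0 lower with MCTP (4 and 0 unadjusted). These counts leave out Krt15, the most abundant gene of that list and one chosen for its own change. With Krt15, which carries much of it, the summed level was 13.13, 13.19 and 13.19 in the controls, 12.44, 12.38 and 12.32 with shNsd2 and 13.42, 13.18 and 13.46 with MCTP. In the wider prostate basal list, led by Itga3, 3 of 9 tested genes were higher and 5 lower with shNsd2, and 2 of 10 were higher and 4 lower with MCTP. Krt14 and Ngfr were the largest rises with shNsd2 (0.78 and 0.47), beside a fall of the laminin gene Lamb3 (-0.39). With MCTP these 2 parted, Krt14 being higher (1.19) and Ngfr lower (-0.28, limma adjusted p = 0.0112, kept in 5 of 6 fits that leave out a library). In the prostate luminal list, led by Krt8, 0 of 8 tested genes were higher and 4 lower with shNsd2 by limma (0 and 5 at an unadjusted p under 0.05), and 3 were higher and 0 lower with MCTP (5 and 2 unadjusted). Cd24a and Tmprss2 rose with MCTP (0.42, limma adjusted p = 0.00735, and 0.31, limma adjusted p = 0.00493). Pbsn, Msmb, Dpp4 and Psca were not analysed here.

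Markers of mesenchymal cells ranged from very high to near the lowest values. Vim, vimentin, the intermediate filament of mesenchymal cells and the most abundant gene of that list, read 17.16, 17.26 and 17.23 in the controls, 17.08, 17.10 and 16.99 with shNsd2 and 17.55, 17.40 and 17.65 with MCTP. Its order of groups was that of Krt8 and Krt19, and its changes were -0.16 with shNsd2 (limma adjusted p = 0.0375) and 0.32 with MCTP (limma adjusted p = 0.0266). The first call was kept without control replicate 1 and the second without MCTP replicate 2, and each was lost when any of the other 5 libraries was left out (0.0757 to 0.119 and 0.073 to 0.0973). Of 12 tested mesenchymal genes, 1 was higher and 7 lower with shNsd2, and 4 were higher and 1 lower with MCTP (4 and 3 without MCTP replicate 2), with median log2 fold changes of -0.13 and -0.06. Zeb1 was the lower gene with MCTP (-0.23, limma adjusted p = 0.0407, kept in 1 of 6 fits that leave out a library) and fell with shNsd2 too (-0.28, limma adjusted p = 0.000804). Acta2, smooth muscle actin, read 5.83, 6.03 and 5.98 in the controls, 6.04, 6.18 and 6.01 with shNsd2 and 8.91, 8.81 and 9.16 with MCTP, a rise of 3.02 with MCTP (limma adjusted p = 7.18e-06). The summed level of the list, most of it from Vim, was 17.74, 17.81 and 17.80 in the controls, 17.59, 17.61 and 17.51 with shNsd2 and 18.04, 17.89 and 18.07 with MCTP. Its part in the keratin changes was not tested.

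Other cell types were thinly represented. Of the fibroblast list, 4 of 8 genes had a value and 3 were tested, led by Col3a1; 1 was higher and 2 lower with shNsd2, and 0 were higher and 1 lower with MCTP by limma (1 and 1 at an unadjusted p under 0.05). Of the leukocyte list, 2 of 8 had a value, Cd14 and Cd68, and 1 of them, Cd68, was higher with shNsd2 (0.23, limma adjusted p = 0.00227) and with MCTP (0.73, limma adjusted p = 0.000688). The summed level of Cd14 and Cd68 was 10.38, 10.51 and 10.52 in the controls, 10.61, 10.59 and 10.59 with shNsd2 and 10.57, 10.44 and 10.61 with MCTP, and Ptprc, Itgam, Csf1r, Cd3e and Cd79a were not analysed here. Of the endothelial list, 1 of 5 had a value, Cdh5, which was under the filter. Of the lung epithelium list, which bears on cells taken from lung metastases, 2 of 7 had a value, Ager and Foxj1; Foxj1 was under the filter and Ager was not called. Of the neuroendocrine list, 3 of 6 had a value, led by Ncam1. Of these, 0 were higher and 2 lower with shNsd2 and 0 were higher and 1 lower with MCTP by limma, the same counts as at an unadjusted p under 0.05. Insm1 fell by 0.38 with shNsd2 and by 0.84 with MCTP on the log2 scale (limma adjusted p = 6.18e-05 and 3.86e-05).

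The genes whose values followed Krt15 and Sprr1a most closely over the 9 libraries were taken among 1365 genes whose group means spanned at least 0.5 on the log2 scale. For Krt15 these were Arrb1 (Pearson r 0.995), Dysf (0.994), D2hgdh (0.993), Ube2v1 (0.992) and Scara3 (0.992). For Sprr1a they were B230312A22Rik (0.999), Txnip (0.997), Angptl4 (0.997), Gstm2 (0.996) and Spon2 (0.996). The 9 points fall into 3 groups and share their libraries, so these coefficients describe a likeness of group patterns. Dysf, for example, had means of 9.77 in the controls, 8.82 with shNsd2 and 9.82 with MCTP, and Txnip had 11.93, 11.32 and 12.90.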

How the data were processed

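Per the labels, polyadenylated RNA of 9 NPK cell libraries (3 groups of 3) was prepared with a TruSeq kit and sequenced on a HiSeq2500. The submitters' processing notes name mm9, bcl2fastq 1.8.4, TopHat, Cufflinks, DESeq and DESeq2 without saying how each was used. The authors deposited 1 table of 12842 genes on a log2 scale (1.63 to 18.47) whose header names no transform, so changes of low genes may be compressed and the depth is unknown. Of 12 columns, 3 match no sample and were not used.

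Each comparison was fitted on 6 libraries with limma 3.58.1 (empirical Bayes with a trend, R 4.3.3) after the filter, which is the median of the lowest 10% of values. Benjamini-Hochberg adjusted p-values took in every gene of a fit, and those under 0.05 were called. The code was tested on simulated data. Gene order, lengths and GC content came from GENCODE M21 (GRCm38, not the authors' build), which held 97.4% of the gene IDs; no reference was used to move coordinates between builds.

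The members and 18 gene lists were chosen with earlier results of these data known. Genes named are the members, every Krt symbol, and per list and comparison up to 3 called rises and 3 called falls, plus lists' leading and defining genes and a few on which a count turns. For Krt15 and Sprr1a, the 5 genes of most similar pattern are named. Alternatives tried were a replicate block, omission of the filter, a joint fit of all 9 libraries, quantile normalization, centring on medians, no variance trend, a GC correction and leaving out each library. Some list genes that meet this rule, and some alleles of the source mice, are not reported here.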

Additional observations from a re-analysis of the deposited data

How the results depend on the processing

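The number of genes called between shNsd2 and control was 5836 and stayed within 1.5 times under every alternative run. Between MCTP and control, 4305 genes were called, with 2046 to 7384 when a library was left out (2046 without MCTP replicate 1, 7384 without MCTP replicate 2). Between shNsd2 and MCTP, 5276 were called, with 3391 to 7781 when a library was left out (without MCTP replicates 1 and 2). Fewer libraries lower the power of each such fit, and the cause of the gain without MCTP replicate 2 was not tested beyond its lower correlations.

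Same-numbered libraries did not deviate together on average (mean correlations of deviations -0.25, -0.18 and -0.36). Single correlations ran from -0.8 to 0.61. With 3 libraries a group, and some libraries standing apart, these values cannot decide whether the replicate numbers pair them. With a replicate block, 4515, 3399 and 3794 genes were called for shNsd2 against control, MCTP against control and shNsd2 against MCTP. Among the tested members the block ended the call of Krt8 with shNsd2 (adjusted p 0.0522), of Krt19 with MCTP (0.0607) and of Cdh1 between the treatments (0.17), and no other.

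Signs that turned belong to changes that were not called, and the cause was not tested. Krt15, which carries no test, turned too, to -0.03 with MCTP under the GC correction. Centred on medians, Krt18 was 0.01 (shNsd2), 0.03 (MCTP) and -0.01 (direct), and Krt78 was 0.01 with shNsd2, as under quantile normalization (0.01). Under quantile normalization, Krt10 was -0.04 with MCTP and Prr9 0.01 with shNsd2. Under the GC correction, MCTP values were -0.06 for Krt10, Krt13, Krt36 and Fosb, -0.09 for Krt79, -0.05 for Krt80 and -0.08 for Fosl1, and Prr9 was 0.01 with shNsd2. Leaving out a library gave -0.08 to 0.03, -0.08 to 0.08 and -0.08 to 0.07 for Krt18 in the 3 comparisons. With shNsd2 it gave -0.05 to 0.02 for Krt78, -0.04 to 0.07 for Sprr2h and -0.10 to 0.0045 for Prr9. With MCTP it gave -0.01 to 0.04 for Krt10, -0.04 to 0.12 for Krt13, -0.04 to 0.05 for Krt79, -0.03 to 0.05 for Krt80 and -0.03 to 0.08 for Fosl1.

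Over the 13 alternatives, adjusted p ran from 0.00194 to 0.0566 for Krt7 and 0.000413 to 0.103 for Krt8 with shNsd2. With MCTP it ran from 0.0264 to 0.467 for Krt7, 0.00182 to 0.224 for Krt8 and 0.000615 to 0.13 for Krt19. Between the treatments it ran from 0.000265 to 0.052 for Krt14 and 0.00306 to 0.17 for Cdh1. Other calls of members changed for Krt8 in one fit of all 9 libraries (adjusted p 0.103 with shNsd2, 0.0445 with MCTP) and for Cdh1 between the treatments under quantile normalization (0.0556) or centring (0.0671). For the named genes, 1718 of 1924 alternative values were classed as the same, 159 lost a call, 9 gained one and 38 turned. For tested genes, the same means that sign and side of the threshold were kept. For Krt15 and Sprr1a, which carry no test, it means a shift smaller than the spread within groups. The turn of Krt15 with MCTP under the GC correction is therefore counted as the same. Of 1482 alternative values of the list counts, 1270 were classed as the same and 212 as moved. The depth is unknown, so no limit from it can be given.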
